A study of Mus musculus with 8 samples.

Results

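Tip cell genes are genes enriched in the endothelial cells (ECs) that lead a growing vessel sprout. The set examined here held 10 of them, taken as a named list: *Esm1*, *Apln*, *Aplnr*, *Kcne3*, *Adm*, *Ramp3*, *Plaur*, *Vav3*, *Cd34* and *Stc1*. All 10 were found among the 49315 gene identifiers counted, and all 10 were among the 16887 genes with enough counts to be tested. RNA was sequenced from brain ECs of 4 mutant and 4 wild-type pups at postnatal day 9, with 1 library per pup. Mutant pups (Map2k1 K57N) carried R26 GT-Map2k1-GFP/+, a Rosa allele with a strong promoter, a removable stop cassette and the mutant cDNA, and Tg-Cdh5CreER+/-, a Cre recombinase driven by the endothelial *Cdh5* promoter and activated by tamoxifen. Tamoxifen was given to the litters at postnatal day 1, and the wild-type pups came from the same litters. Both lines had been backcrossed to C57BL/6J. Recombination reached only a part of the ECs, so each mutant library mixes recombined and non-recombined cells, and the mutant protein is made from a cDNA and not from the endogenous gene. ECs were pulled from digested brain with beads that bind CD31. In such bulk samples fewer cells of a type and less RNA per cell cannot be told apart.

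A sprout is led by a tip cell, which extends filopodia, migrates toward VEGF and digests matrix, and is followed by stalk cells that divide and form the lumen. Tip cells make the Notch ligand Dll4, which acts on the neighbours and keeps them in the stalk state. Several members of the set are secreted factors (Esm1, Apln, Adm, Stc1), others are receptors, receptor partners or surface proteins (Aplnr, Ramp3, Plaur, Cd34), and the rest act inside the cell or in the membrane (Vav3, Kcne3).

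The targeted gene separated the groups. *Map2k1*, whose reads include those of the introduced cDNA, had 12673 to 18707 normalized counts in mutant and 1504 to 1760 in wild-type libraries. Normalized counts are counts scaled by edgeR's TMM method to the mean library size. Libraries held 24833373 to 34196955 counts on genes in the mutant group and 28146348 to 32208421 in the wild-type group. The 8 endothelial markers (1 called higher, 1 lower) summed to 216192 to 262680 normalized counts in mutant and 190561 to 231515 in wild-type libraries, and no marker of any list examined was at 0 in every library. This sum covers changes in both directions. *Cdh5* (log2 fold change 1.11) and *Pecam1*, the gene of CD31 (0.53), were higher. *Slco1a4* (-1.45), *Ly6c1* (-0.73) and *Cldn5* (-0.47) were lower, all with an adjusted p under 0.05 (edgeR). *Erg*, *Esam* and *Egfl7* did not pass the test. Markers of some other cells moved with genotype. The oligodendrocyte lineage list (6 of 6 genes called lower) summed to 962 to 1846 in mutant and 2993 to 8021 in wild-type libraries, and the red blood cell list (5 of 5 called lower) to 2569 to 8448 and 15716 to 27279. The neuron list (4 of 6 called lower) summed to 590 to 843 and 988 to 1691. Its gene *Rbfox3* went the other way, with 294 in mutant and 128 in wild-type libraries on average (adjusted p = 0.051, edgeR). The list of dissociation response genes (2 of 7 called lower) summed to 114636 to 199670 and 236004 to 302367. The pericyte list had 1 of 8 genes called higher and summed to 24059 to 38732 and 20981 to 39300. The smooth muscle list (1960 to 5462 and 2559 to 6251), the fibroblast list (26800 to 34070 and 20250 to 29458), the microglia and macrophage list (2826 to 10733 and 3014 to 12648) and the neutrophil list (294 to 583 and 327 to 698) had no gene called, and their group ranges overlapped. The astrocyte list had no gene called either. Its sums of 18446 to 22126 and 10887 to 12922 did not overlap, but they consisted almost wholly of *Gja1* (19434 and 11144 on average), a connexin gene; 4 of the 6 genes had log2 fold changes below 0 and the median was -0.50. The part of these cells in the values below was not tested.

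**Figure D1:**
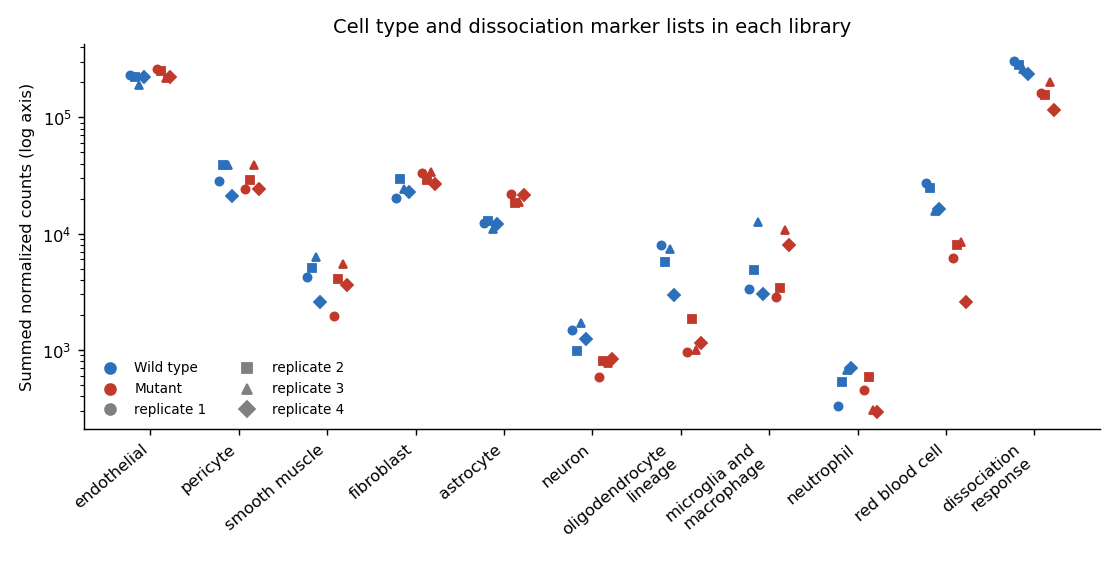
Summed normalized counts of each marker list (y axis, log scale) in the 4 wild-type (blue) and 4 mutant (red) libraries, with a symbol for each replicate number. The oligodendrocyte, red blood cell, neuron and dissociation lists lay lower in all 4 mutant libraries, and the microglia and macrophage list was highest in the libraries with replicate number 3.

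Of the 10 members, 5 rose in mutant ECs and none fell past the limits used. A gene was called at a Benjamini-Hochberg adjusted p under 0.05 over all genes tested (edgeR's quasi-likelihood test) with an absolute log2 fold change over 1. *Kcne3*, *Stc1*, *Vav3*, *Esm1* and *Ramp3* passed as higher, 5 of 10 members, where 5.9% of all genes tested were called higher. None of the 10 was called lower, where 8.05% of all genes tested were. *Plaur* and *Aplnr* were higher and *Apln* and *Cd34* lower with an adjusted p under 0.05 and a change under the limit on fold, and *Adm* had an adjusted p of 0.585. On the adjusted p alone, 7 members were higher and 2 lower, against 21.5% and 22.9% of all genes tested. The median log2 fold change was 1.24 over the 10 members and -0.02 over all genes tested. The libraries of both groups did not overlap for 8 members, 6 with every mutant library above and 2 with every mutant library below. Over all genes tested, the corresponding shares were 20.6% and 21.9%. The members and the lists below were chosen with earlier results of these data known. Comparisons with all genes tested therefore describe these sets and do not test them.

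**Figure D2:**
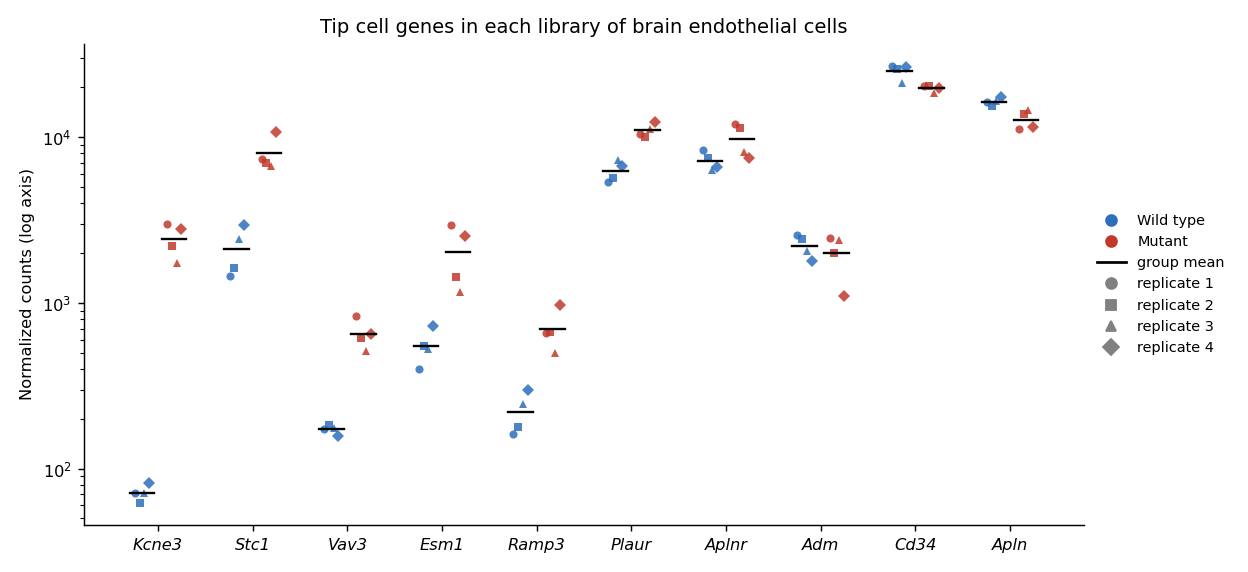
Normalized counts (y axis, log scale) of the 10 tip cell genes in each library, wild type in blue and mutant in red, with black bars at the group means. *Kcne3* lay between 61.9 and 82.1 in wild-type and between 1739 and 2985 in mutant libraries, while *Adm* and *Aplnr* overlapped between the groups.

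Among the secreted factors, *Esm1* (ENSMUSG00000042379, chromosome 13 of GRCm38 from 113209659 to 113218098) encodes endocan, a proteoglycan released by activated endothelium and a common marker of tip cells. It had 2952, 1425, 1162 and 2549 normalized counts in mutants 1 to 4 and 402, 549, 526 and 722 in the wild-type libraries. The groups did not overlap, but mutants 1 and 4 stood well above mutants 2 and 3. *Esm1* rose 3.68-fold (log2 fold change 1.88, standard error 0.29, adjusted p = 0.000553, edgeR's quasi-likelihood test). *Gzmk*, annotated over the same span on the opposite strand, had at most 2 counts in any library.

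*Stc1* (ENSMUSG00000014813, chromosome 14 from 69029289 to 69041401) encodes stanniocalcin 1, a secreted glycoprotein hormone linked to calcium and phosphate handling. It had 7428, 7037, 6745 and 10813 normalized counts in mutants 1 to 4 and 1454, 1626, 2448 and 2963 in the wild-type libraries. The groups did not overlap, and mutant 4 was the highest library. *Stc1* rose 3.77-fold (log2 fold change 1.92, standard error 0.23, adjusted p = 0.000137, edgeR). Its paralog *Stc2* rose alongside, from 70.8 ± 11.1 to 219 ± 35.4 normalized counts (SD, n = 4 each), a log2 fold change of 1.62 (adjusted p = 6.69e-05, edgeR). Per kilobase of gene length, *Stc1* held 97.6% to 98.9% of the counts of both stanniocalcins in mutant and 96.3% to 98.5% in wild-type libraries, a mean difference of 0.54 percentage points that did not pass the exact two-sided permutation test (p = 0.457).

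The apelin pair moved in opposite directions by small amounts. *Apln* (ENSMUSG00000037010, X chromosome from 48025146 to 48034853, minus strand) encodes apelin, the peptide ligand of the G protein-coupled receptor encoded by *Aplnr* (ENSMUSG00000044338, chromosome 2 from 85136225 to 85139923). *Apln* had 11205, 13760, 14595 and 11501 normalized counts in mutants 1 to 4 and 16280, 15546, 16464 and 17414 in the wild-type libraries. Every mutant library was below every wild-type library, and the change was -22.3% (95% interval -33.0% to -9.86%, log2 fold change -0.36, adjusted p = 0.0113, edgeR). *Aplnr* had 12001, 11441, 8097 and 7490 normalized counts in the mutants and 8364, 7496, 6345 and 6600 in the wild-type libraries. Mutants 1 and 2 were above all wild-type libraries and mutants 3 and 4 were within the wild-type range. The log2 fold change of *Aplnr* was 0.44 (standard error 0.16, adjusted p = 0.045, edgeR), and its adjusted p was above 0.05 when mutant 1 (0.101), mutant 2 (0.121), wild type 2 (0.0778), wild type 3 (0.106) or wild type 4 (0.105) was left out. With the replicate number as a block in the test, the adjusted p of *Aplnr* was 0.00448, and with the label prefix as a block 0.00263 (edgeR). Among libraries that share a label prefix, the log2 ratio of *Aplnr* was 0.18 to 0.56. The other known ligand gene, *Apela*, had at most 3 counts in any library and was not tested.

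RNA of adrenomedullin and of its receptor components was counted. *Adm* (ENSMUSG00000030790, chromosome 7 from 110627661 to 110629820) encodes adrenomedullin, a vasodilator peptide that also acts on lymphatic and blood vessel growth. It had 2458, 1990, 2400 and 1107 normalized counts in mutants 1 to 4 and 2564, 2447, 2066 and 1786 in the wild-type libraries. The groups overlapped, and mutant 4 was below all other libraries. The log2 fold change was -0.16 (95% interval -0.64 to 0.33, adjusted p = 0.585, edgeR), which spans changes of -36.0% to 25.5%, and without mutant 4 the value was 0.0654.

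The receptor of adrenomedullin is built from Calcrl and a receptor activity modifying protein, Ramp2 or Ramp3. *Calcrl* had 3519 ± 59.1 normalized counts in mutant and 3572 ± 334 in wild-type libraries (SD, n = 4), with a 95% interval of the log2 fold change from -0.19 to 0.15. *Ramp3* (ENSMUSG00000041046, chromosome 11 from 6658521 to 6677475) had 661, 666, 498 and 974 normalized counts in mutants 1 to 4 and 163, 179, 244 and 298 in the wild-type libraries. Even the lowest mutant exceeded the highest wild type, and *Ramp3* rose 3.17-fold (log2 fold change 1.67, standard error 0.23, adjusted p = 0.000302, edgeR). *Ramp2* was the more abundant partner and was lower in every mutant library, with 4881 ± 642 against 7567 ± 748 normalized counts (SD, n = 4), a log2 fold change of -0.63 (adjusted p = 0.0010, edgeR). *Ramp1* had 24.3 ± 5.65 and 36.3 ± 14.3 (SD, n = 4; adjusted p = 0.168, edgeR). Per kilobase of gene length, *Ramp3* made up 25.2%, 22.5%, 18.2% and 36.3% of the counts of the 3 Ramp genes in mutants 1 to 4 and 4.59%, 5.10%, 8.23% and 8.35% in the wild-type libraries. The mean share was 25.5% ± 7.69 in mutant and 6.56% ± 2.00 in wild-type libraries (SD, n = 4; two-sided exact permutation, p = 0.0286). With 4 libraries a group, no smaller p is possible. Without division by gene length the difference in the *Ramp3* share was 9.86 percentage points in place of 19.0. *Gpr182*, an endothelial receptor once proposed to bind adrenomedullin, rose from 290 ± 43.8 to 1034 ± 496 normalized counts (SD, n = 4; log2 fold change 1.83, adjusted p = 0.000463, edgeR). Over 60 bases it overlaps *Zbtb39* on the opposite strand, which had up to 1378 counts.

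*Plaur* (ENSMUSG00000046223, chromosome 7 from 24462484 to 24475968) encodes the urokinase receptor, which holds the matrix protease urokinase (Plau) at the cell surface. It had 10417, 10010, 11251 and 12317 normalized counts in mutants 1 to 4 and 5339, 5673, 7336 and 6743 in the wild-type libraries. The groups did not overlap and the level was 1.75-fold higher in mutant ECs (log2 fold change 0.81, 95% interval 0.56 to 1.06, adjusted p = 0.000275, edgeR), below the limit on fold. Its ligand changed by more. *Plau* had 7639, 4951, 7944 and 9975 normalized counts in mutants 1 to 4 and 797, 1101, 2588 and 1084 in the wild-type libraries, a rise of 5.47-fold (log2 fold change 2.45, standard error 0.35, adjusted p = 0.000334, edgeR). Per kilobase, *Plaur* held 57.0% ± 5.18 of the counts of receptor and ligand in mutant and 81.1% ± 6.42 in wild-type libraries (SD, n = 4; exact two-sided permutation test, p = 0.0286). *Plat*, the tissue-type plasminogen activator, was 1.53-fold higher (log2 fold change 0.61, adjusted p = 0.000316, edgeR). The wild-type library highest in *Plaur* and *Plau*, wild type 3, was also the highest in the summed microglia and macrophage markers, with 12648, and whether these cells contributed to its reads was not tested.

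*Cd34* (ENSMUSG00000016494, chromosome 1 from 194938819 to 194961279) encodes a sialomucin of the endothelial surface that is concentrated on tip cell filopodia. It had 20459, 20268, 18563 and 19910 normalized counts in mutants 1 to 4 and 26988, 25930, 21311 and 26394 in the wild-type libraries. Every mutant library was below every wild-type library, and the change was -21.3% (95% interval -31.2% to -9.9%, log2 fold change -0.35, adjusted p = 0.00916, edgeR). An antisense gene over part of *Cd34*, *Gm16897*, had at most 398 counts in a library. The related sialomucins differed in direction. *Podxl*, the podocalyxin relative of Cd34, fell from 28750 ± 3613 to 12336 ± 2333 normalized counts (SD, n = 4; log2 fold change -1.22, adjusted p = 0.000102, edgeR), and *Emcn* (endomucin) was 1.77-fold higher (log2 fold change 0.82, adjusted p = 9.54e-05, edgeR). On the adjusted p alone, 22.9% of all genes tested were lower, like *Apln* and *Cd34*. A relation of these 2 genes to the lower oligodendrocyte, red blood cell, neuron and dissociation lists above was not tested.

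*Kcne3* (ENSMUSG00000035165, chromosome 7 from 100176502 to 100184869) showed the largest difference of the 10 members. It encodes an accessory subunit of voltage-gated potassium channels, with the pore subunit Kcnq1 as its best known partner. *Kcne3* had 2985, 2193, 1739 and 2792 normalized counts in mutants 1 to 4 and 70.8, 61.9, 71.7 and 82.1 in the wild-type libraries. No library came near the other group, and *Kcne3* rose 33.9-fold (log2 fold change 5.08, standard error 0.19, adjusted p = 1.48e-07, edgeR). The lowest library still held 66 reads, a depth at which counting error alone gives a coefficient of variation of 11.5% in the wild-type group, and *Gm34821* on the opposite strand had at most 11. Among its relatives, *Kcne4* had a log2 fold change of 0.08 (adjusted p = 0.756, edgeR). *Kcne2* was called lower (10.1 ± 10.5 against 43.3 ± 34.6 normalized counts, SD, n = 4; adjusted p = 0.0309, edgeR), but its groups overlapped and the call was lost when mutant 1, mutant 2, mutant 4 or wild type 3 was left out. *Kcne1* had at most 5 counts in a library and was not tested. *Kcnq1* was lower in mutant ECs, with 956 ± 270 against 1491 ± 173 normalized counts (SD, n = 4; log2 fold change -0.64, adjusted p = 0.0107, edgeR), and mutant 1 lay within the wild-type range. The antisense transcript *Kcnq1ot1* had up to 535 counts in a library.

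*Vav3* (ENSMUSG00000033721, chromosome 3 from 109340653 to 109685698) encodes an exchange factor that switches on small GTPases such as Rac1. It had 829, 614, 515 and 646 normalized counts in mutants 1 to 4 and 174, 184, 175 and 157 in the wild-type libraries. The groups did not overlap, and *Vav3* rose 3.77-fold (log2 fold change 1.91, standard error 0.15, adjusted p = 8.60e-06, edgeR). *Vav2* had 775 ± 21.5 and 862 ± 128 normalized counts (SD, n = 4; adjusted p = 0.263, edgeR). *Vav1*, the exchange factor of blood cells, had 91.0, 120, 448 and 254 in the mutants and 132, 211, 558 and 135 in the wild-type libraries (adjusted p = 0.816, edgeR), and it was highest in mutant 3 and wild type 3, the libraries with the highest microglia and macrophage sums. Per kilobase, *Vav3* made up 39.0% ± 9.87 of the Vav counts in mutant and 13.6% ± 3.25 in wild-type libraries (SD, n = 4; exact two-sided permutation test, p = 0.0286). With *Vav1* left out, a choice made after its values were seen, the shares were 48.8% ± 5.35 and 18.9% ± 1.61 (exact permutation, p = 0.0286). The GTPases themselves did not pass the test. The 95% interval of the log2 fold change was -0.13 to 0.17 for *Rac1*, 0.02 to 0.30 for *Cdc42* (adjusted p = 0.0557, edgeR) and -0.33 to 0.00 for *Rhoa* (adjusted p = 0.0895, edgeR).

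**Figure D3:**
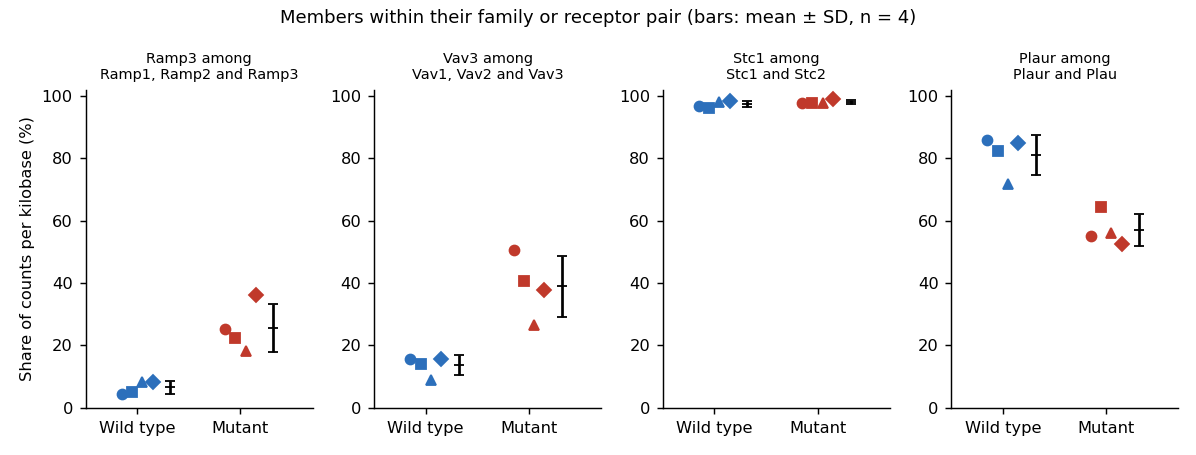
Share (y axis, percent of counts per kilobase of gene length) of *Ramp3*, *Vav3*, *Stc1* and *Plaur* within its family or receptor pair in each wild-type (blue) and mutant (red) library, with the mean ± SD of 4 libraries beside the points. The shares of *Ramp3* and *Vav3* were higher and that of *Plaur* lower in all 4 mutant libraries, and the *Stc1* share overlapped between the groups.

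Compared per kilobase of gene length, the members kept part of their order. In wild-type ECs *Apln* was the most abundant member, with 5216 ± 244 normalized counts per kilobase, followed by *Cd34* (3451 ± 357), *Plaur* (2397 ± 355) and *Aplnr* (1947 ± 248; SD, n = 4), of which *Plaur* and *Aplnr* overlapped. *Kcne3* (40.3 ± 4.64) and *Vav3* (28.7 ± 1.88) closed the order. This order depends on the gene lengths used, such as 7290 bases for *Cd34* and 3149 for *Apln*. Without division by length, *Cd34* (25156 normalized counts on average) was above *Apln* (16426) in wild-type ECs. In mutant ECs *Plaur* (4203 ± 389) and *Apln* (4054 ± 530) led and overlapped, as did *Cd34* (2716 ± 117), *Aplnr* (2638 ± 620) and *Stc1* (2139 ± 506) as neighbours. *Kcne3* moved from the ninth to the sixth place with 1364 ± 320, overlapping its neighbour *Adm* (1228 ± 385), and *Vav3* stayed last with 108 ± 21.9. Among all genes tested, the level per kilobase of *Kcne3* went from the percentile 34.0 to 93.6, that of *Esm1* from 69.9 to 90.7, that of *Ramp3* from 59.4 to 81.6 and that of *Vav3* from 28.5 to 51.9. *Apln*, *Aplnr*, *Cd34* and *Plaur* were at percentile 96.0 or above in both groups.

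The mutant libraries differed among themselves, in part in the order of *Map2k1*. Relative to the wild-type mean, *Map2k1* was at 11.6, 7.88, 7.89 and 8.90 times in mutants 1 to 4. *Kcne3* was at 41.7, 30.6, 24.3 and 39.0 times. *Esm1* was at 5.37, 2.59, 2.11 and 4.64 times and *Vav3* at 4.81, 3.56, 2.98 and 3.74 times. These 3 genes, like *Map2k1*, were highest in mutant 1 and next highest in mutant 4. *Stc1* (5.09 times), *Ramp3* (4.41 times) and *Plaur* (1.96 times) were instead highest in mutant 4. In all, 6 of the 10 members were highest in mutant 1, 3 in mutant 4 and 1, *Apln*, in mutant 3, while 6 were lowest in mutant 3. The 6 highest in mutant 1 include *Cd34*, which was lower in mutant ECs, and *Adm*, which did not pass the test. Among mutant libraries, mutant 1 also had the highest sums of the endothelial, other tip cell, stalk cell and astrocyte lists, so this order is not particular to the members. The share over all genes tested was not counted. With 4 libraries this order is a description without a test. The median coefficient of variation of the members was 23.5% in mutant and 13.8% in wild-type libraries, against 14.6% and 11.9% over all genes tested.

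**Figure D4:**
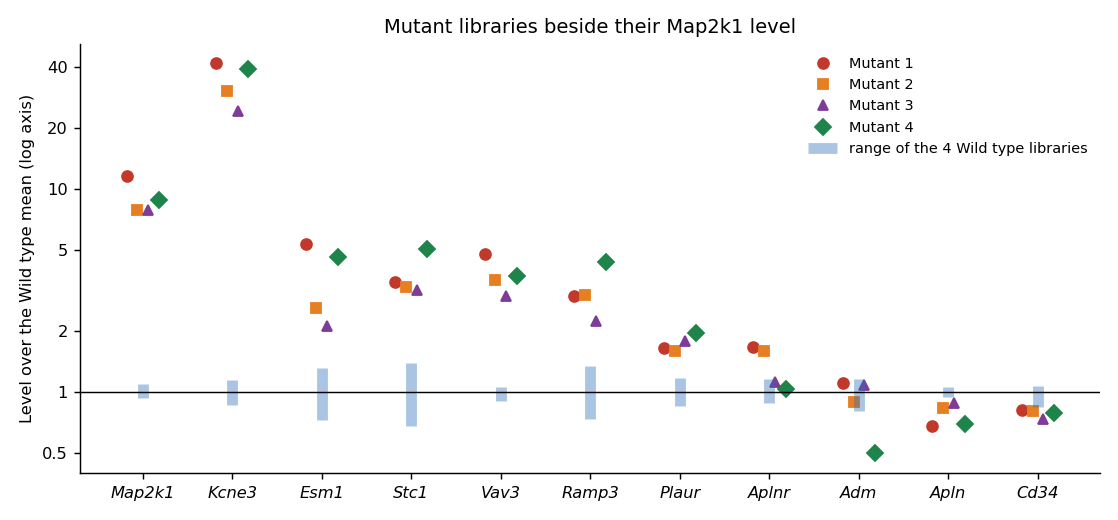
Level of *Map2k1* and the 10 tip cell genes in each mutant library, as a multiple of the wild-type mean (y axis, log scale), with pale bars for the range of the 4 wild-type libraries. Mutants 1 and 4 were the upper pair for *Map2k1*, *Kcne3*, *Esm1* and *Vav3*, and *Kcne3* reached 24.3 to 41.7 times the wild-type mean.

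The label prefixes of the libraries allowed a comparison within smaller sets. Each of 3 prefixes held libraries of both genotypes, and 9 of the 10 members had the same direction within every prefix. For the 6 members with every mutant library above and the 2 with every one below, that direction was already fixed. Only *Aplnr* and *Adm*, whose groups overlapped, could have differed between prefixes, so the count of 9 adds little to the overlap given above. The log2 ratio of *Kcne3* was between 4.60 and 5.29, that of *Esm1* between 1.14 and 2.20, and that of *Apln* between -0.60 and -0.17. *Adm* was the exception, with -0.69 to 0.22.

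The wider list of tip cell genes also held changes in both directions. Of 14 others, 5 were called higher and none lower, where 5.9% and 8.05% of all genes tested were. On the adjusted p alone 8 were higher and 3 lower, against 21.5% and 22.9% of all genes tested. The median log2 fold change of the 14 was 0.44. The called genes were *Igfbp3*, an IGF binding protein (log2 fold change 3.91, adjusted p = 1.71e-06), the VEGF family ligand *Pgf* (2.82, adjusted p = 4.81e-05), the Tie2 ligand *Angpt2* (2.03, adjusted p = 3.86e-05; it lies on the opposite strand to *Mcph1*, which had up to 884 counts), the adhesion molecule *Mcam* (1.93, adjusted p = 4.58e-07) and the basement membrane protein *Nid2* (1.26, adjusted p = 4.44e-05, all edgeR). *Igfbp3* went from 5590 ± 596 to 84258 ± 29297 normalized counts (SD, n = 4), and *Pgf* from 216 ± 77.7 to 1519 ± 526 (SD, n = 4). Beside the called genes, *Cxcr4* (log2 fold change 0.93, adjusted p = 0.000965), *Flt4* (0.45, adjusted p = 0.0309) and *Nrp2* (0.43, adjusted p = 0.000874, all edgeR) were higher on the adjusted p alone. Lower on the adjusted p alone were the VEGF receptor *Kdr* (log2 fold change -0.59, adjusted p = 0.00177), the netrin receptor *Unc5b* (-0.78, adjusted p = 0.000689) and the Notch ligand *Dll4* (-0.33, adjusted p = 0.0445, all edgeR). *Nrp1*, *Pdgfb* and *Efnb2* had log2 fold changes of -0.16, 0.09 and 0.07 and did not pass the test.

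Of 9 genes tied to stalk cells, none was called higher and only the Notch target *Hes1* was called lower, from 3931 ± 304 to 1626 ± 373 normalized counts (SD, n = 4; log2 fold change -1.27, adjusted p = 0.0001, edgeR). On the adjusted p alone no stalk gene was higher and 3 were lower, with the Notch target *Hey1* at -0.88 (adjusted p = 0.000686) and the receptor *Tek* at -0.44 (adjusted p = 0.00332, edgeR). Without mutant 2, *Hey1* also passed the limit on fold, which made 2 genes called lower. These counts stand beside 8.05% of all genes tested called lower and 22.9% lower on the adjusted p alone. The median log2 fold change of the list was -0.22. Of 20 partners and paralogs, 18 were tested, with a median log2 fold change of -0.00. Among them 4 were called higher (*Plau*, *Gpr182* and *Stc2* included) and 2 lower (*Podxl*, *Kcne2*). Over all genes tested, 5.9% were called higher and 8.05% lower.

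**Figure D5:**
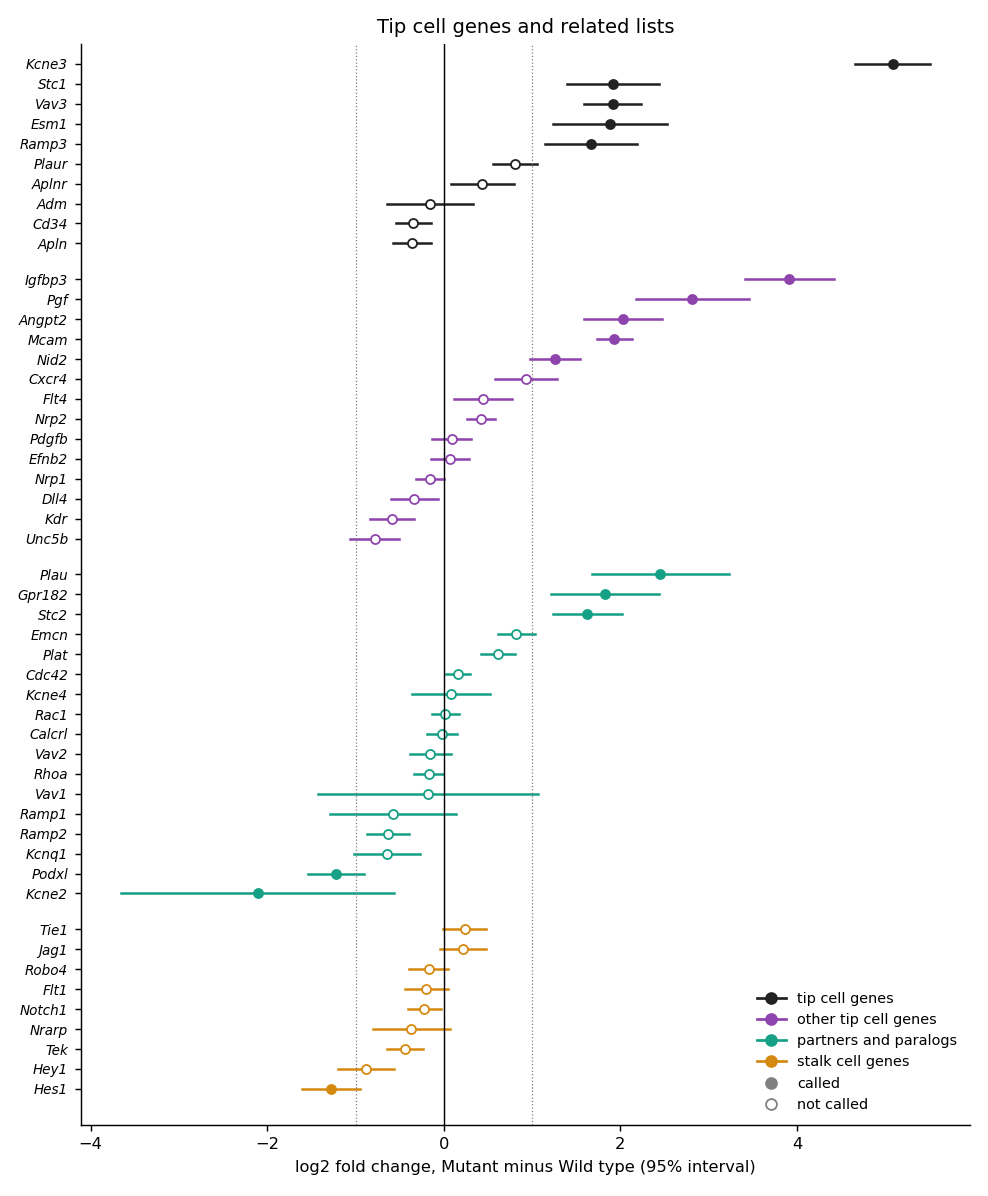
Log2 fold change, mutant minus wild type, with its 95% interval (x axis) for the 10 tip cell genes (black), 14 other tip cell genes (purple), partners and paralogs (green) and 9 stalk cell genes (orange), filled where called and open where not. *Kcne3* stands apart at 5.08 among the members, and the intervals of *Adm*, *Calcrl* and *Rac1* span 0.

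The genes whose pattern was most like that of *Esm1* over the 8 libraries were *Tbc1d20*, *Slc2a13*, *Osbp*, *Mbd2* and *Ppp4r1*, with Pearson's r between 0.989 and 0.997 on log2 CPM. The r is a description over libraries that fall into 2 groups, and it is given without a test. *Slc2a13* had 239 normalized counts in mutant and 108 in wild-type libraries on average, and the other 4 genes had log2 fold changes of 0.31 to 0.65.

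Promoter windows of RefSeq (GRCm38.p6, 250 bases before to 50 bases after a transcript start) were found for 8 of the 10 members, all but *Aplnr* and *Stc1*, and gave 11 windows. The AP-1 motif TGANTCA, searched on both strands, was in 3 of the 11, and in 7.79% of 32544 windows of all genes. These 3 windows are shown because they hold this motif, given in capitals, and they belong to members that were higher in mutant ECs. The windows of *Esm1* and *Ramp3*, which were also higher, lacked it, as did the other windows of *Kcne3* and *Vav3*. The motif began 37 bases before the start of *Kcne3* (chr7:100176420-100176719, plus strand), 69 bases before that of *Plaur* (chr7:24462233-24462532, plus strand), and 114 bases before an internal start of *Vav3* (chr3:109573757-109574056, plus strand).
Kcne3: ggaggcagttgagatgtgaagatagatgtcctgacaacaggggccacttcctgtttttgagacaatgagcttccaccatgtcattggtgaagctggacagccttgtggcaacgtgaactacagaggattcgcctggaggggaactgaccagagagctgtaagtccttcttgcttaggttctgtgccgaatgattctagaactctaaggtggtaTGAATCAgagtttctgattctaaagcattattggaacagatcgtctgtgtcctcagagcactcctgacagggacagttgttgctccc
Plaur: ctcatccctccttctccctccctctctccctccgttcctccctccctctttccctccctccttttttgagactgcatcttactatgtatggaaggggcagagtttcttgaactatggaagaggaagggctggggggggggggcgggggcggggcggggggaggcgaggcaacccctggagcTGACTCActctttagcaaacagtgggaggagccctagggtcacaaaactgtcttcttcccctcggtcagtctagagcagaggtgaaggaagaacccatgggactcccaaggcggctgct
Vav3: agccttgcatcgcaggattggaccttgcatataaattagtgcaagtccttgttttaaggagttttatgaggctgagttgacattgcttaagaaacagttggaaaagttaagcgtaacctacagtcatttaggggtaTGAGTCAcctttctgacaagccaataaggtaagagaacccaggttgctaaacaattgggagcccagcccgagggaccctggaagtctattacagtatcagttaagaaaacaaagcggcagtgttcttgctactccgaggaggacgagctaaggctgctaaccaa
The ETS core CCGGAA was in 1 window, that of *Ramp3* (15.0% of all windows), and the hypoxia response element ACGTG in 1, that of *Kcne3*, where it began 140 bases before the start (19.7% of all windows). The E-box CANNTG was in 6 windows of 5 members (72.3% of all windows) and the TATA box TATAAA in 1, the internal *Vav3* window (13.6% of all windows). The *Esm1* window held the E-box and none of the other 4 motifs. A match describes letters in these windows and does not show that a factor binds there.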

How the data were processed

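Poly(A) RNA of brain ECs was sequenced by the authors, 1 library per pup, and the groups were taken from the sample titles. The authors trimmed reads with Trimmomatic and mapped them to GRCm38 with STAR. They deposited whole-number counts per gene without normalization. The counting program, annotation release and use of strand are not given in the sources used here, so reads of overlapping genes on opposite strands cannot be told apart. A second deposited set, normalized with DESeq2, was not used here. Of 49315 gene identifiers, 48970 matched a symbol in GENCODE vM21.

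Counts were tested with edgeR 4.0.16 in R 4.3.3, with TMM scaling, filterByExpr (minimum count 10) and glmQLFit and glmQLFTest, with no covariate. The alternatives were DESeq2 1.42.0, other scalings, filters and thresholds, blocks by replicate number and label prefix, and each library left out. Shares were tested by exact permutation (scipy 1.17.1). The counts differed between libraries of a group by more than the sampling noise (chi-square per degree of freedom 6.70 to 37.1). The test was checked on simulated data. Nothing in the labels says what the label prefixes stand for.

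The members and lists were chosen with earlier results of these data known. The genes named are the 10 members, every called gene of the other fixed lists, those not called whose protein binds or is a paralog of a member, and the 5 genes most like *Esm1*. Other genes of the lists were named after their values were seen. A partner gene is counted but not reported by name here.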

Additional observations from a re-analysis of the deposited data

Results flagged for a closer look

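A library was flagged where its gap to the nearest of the other 3 of its group was above Dixon's 95% critical share of the group's range. Over 110 groups examined, 10 were flagged, and chance flags about 1 in 20 groups. Among the members, *Stc1* was flagged in mutant 4 with 10813 normalized counts, as was the *Stc1* share of both stanniocalcins there, with 98.9%. Wild type 3 was flagged for *Ramp2* with 6457 normalized counts, for *Plau* with 2588, for *Rhoa* with 14164 and for *Nrp1* with 8694. The remaining flags were *Kcnq1* in mutant 1 with 1357 normalized counts, *Angpt2* in wild type 4 with 5636, *Jag1* in mutant 4 with 14989 and *Notch1* in wild type 4 with 26786.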

How the results depend on the processing

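The 5 members called higher (*Esm1*, *Kcne3*, *Ramp3*, *Stc1*, *Vav3*) were called under every other tool, scaling, filter and block tried, under glmTreat and with each library left out. Over these alternatives the log2 fold change ranged from 4.99 to 5.22 for *Kcne3* and from 1.67 to 2.08 for *Esm1*. *Aplnr* had an adjusted p above 0.05 in 6 of 15 alternatives (range 0.00263 to 0.121 over all 15), among them upper quartile scaling (0.0619), and the log2 fold change of *Adm* was -0.25 to 0.0654 with each library left out, above 0 only without mutant replicate 4. Without a limit on the fold change, 2 members, 3 other tip cell genes, 4 partners and paralogs and 3 stalk cell genes were lower, and 8 other tip cell genes were higher. With a minimum count of 100, 1 partner (*Podxl*) was lower, because *Kcne2* was not tested, and under glmTreat 0 partners and 0 stalk cell genes were. Called higher under glmTreat were 4 other tip cell genes, with *Nid2* lost, and 3 partners and paralogs. Without mutant 2 or without wild type 4, *Cxcr4* was called as well, which made 6 other tip cell genes called higher. With each library left out, the number of partners called lower was 1 to 2 and that of stalk cell genes called lower 1 to 2. Leaving out libraries kept the difference of the shares (mutant minus wild type, percentage points) at 15.4 to 21.4 for *Ramp3*, 21.4 to 29.4 for *Vav3* and -27.3 to -22.6 for *Plaur*, where 4 against 3 libraries cannot give an exact p under 0.0571. Same-numbered libraries also share a label prefix, and the study drew wild-type pups from the litters of the mutants, but the labels do not say that a number or prefix marks a litter. The correlation of same-numbered libraries' deviations from the group means was 0.02 to 0.29, above 0.1 in 3 of 4 pairs. Because 3 of 8 libraries correlated best with their own number, the numbers were not taken as pairs. This check scored numbers and not prefixes, so it cannot decide whether a prefix should be a block. Numbers 1 and 2 share a prefix, and across them the correlations were 0.165 (mutant 1, wild type 2) and 0.253 (mutant 2, wild type 1). With the replicate block, 1032 genes were called higher and 1399 lower, against 996 and 1360 without it, and with the label prefix block 1050 and 1406; the same 5 members were called under both. For the shares, same-numbered libraries were also taken as pairs. The mean difference over pairs equals the difference of the group means (19.0 percentage points for *Ramp3*), so this setting could not change it. A test on 4 pairs cannot give a p under 0.05. Over all genes tested, the minimum count of 100 left 612 called higher and 627 lower, glmTreat left 427 and 309, and with no limit on the fold change 3631 and 3873 passed. Depth limited the wild-type levels of *Kcne3* (66 to 83 counts) and *Vav3* (149 to 203 counts), where counting error alone gives a coefficient of variation of 11.5% and 7.37% beside 11.5% and 6.56% observed. For the other members in both groups the observed spread was larger than counting error.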
